A study of Mus musculus with 6 samples.

Results

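The genes described here make cholesterol in the liver cell, sense its level, take it up, move it, export it and esterify it. They were chosen by name as a list of 33 genes: 18 for enzymes of cholesterol synthesis and 15 for sterol sensing, uptake, transport, efflux and esterification. Each was matched by symbol to the probe sets of the array, and the probe set with 1 gene symbol and the highest mean signal stood for the gene. In this way 29 of the 33 were measured, out of 13989 measured genes in all, and Acat2, Nr1h2, Soat1 and Soat2 were not analysed here. A gene counted as measured when its signal exceeded a floor of 221.4, the median of all values, on at least 1 array. All 29 passed, and 28 of them were above the floor on all 6 arrays.

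Liver RNA came from male C57BL6/J mice, an inbred strain, aged 6 to 8 weeks at the start, and was measured on Affymetrix whole-genome mouse arrays. A study of 2 months and a study of 5 months each had 3 groups: chow, a fast-food diet, and the fast-food diet with canertinib, which irreversibly blocks EGFR and related ERBB kinases. The fast-food diet held 21% fat, 34% sucrose and 0.2% cholesterol by weight, with glucose and fructose in the drinking water. Each group was 1 array of RNA pooled from 3 to 4 livers. In the 2-month study canertinib was eaten with the diet for its full length, at a daily dose estimated as 80 mg/kg, and no group is labelled as injected. The 5-month drug group received 80 mg/kg by intraperitoneal injection, 5 days weekly, in the final 5 weeks. Their fast-food counterparts received vehicle (PBS) injections, which the labels do not give for the 5-month chow group. Route, duration of the drug and length of the study therefore differed together. The labels name no clone or transgene.

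Cholesterol is built from acetyl units by way of mevalonate and isoprenoids to squalene, which is closed to the ring of lanosterol and trimmed to cholesterol. The transcription factor SREBP2, encoded by Srebf2, turns on the genes of this chain. While the membranes of the endoplasmic reticulum are rich in sterol, INSIG proteins hold SREBP2 and its escort SCAP there, and when sterol falls SCAP carries SREBP2 to the Golgi, where it is cut and released to the nucleus. Oxysterols made from surplus cholesterol activate the LXR receptors, which turn on the export pumps ABCA1 and ABCG1 and the gene Mylip. In liver, much of the cholesterol that arrives with food is sensed in this way.

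Hepatocyte markers were bright on every array, with 10 of 10 above the floor, and the adipocyte genes Adipoq and Lep were at the floor throughout. No comparison within a study has a replicate, so sizes are given without an error. The number of arrays limits the precision. Between the pair of chow arrays, which differ in age and study, 95% of measured genes lay between -0.84 and 0.80 on the log2 scale. The member with the largest difference in that pair was Hmgcs1 with 0.91, and 0 members were at least 2-fold lower or higher, beside 1.32% and 1.28% of all genes. The median member was 0.17 higher on the 5-month chow array, with 20 of 29 higher. As a sign of RNA quality, actin probe sets at the 3' end exceeded those at the 5' end, on the log2 scale, by 0.94, 0.85 and 1.19 on the chow, fast-food and drug arrays at 2 months and 0.85, 0.98 and 1.12 at 5 months. The same difference for Gapdh was -0.18, -0.30 and -0.20, then -0.09, -0.22 and -0.14. The actin value was highest on the drug arrays and the Gapdh value on the chow arrays, and their part in the results was not tested.

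The first comparison asked how these genes differed between the fast-food diet and chow. Nearly the whole synthesis chain was lower on the fast-food arrays. Of the 17 measured enzymes, 15 were lower at 2 months and 16 at 5 months, with medians of -0.81 and -1.28 on the log2 scale against 0.00 over all measured genes at each time. The isomerase gene Idi1 and the sterol oxidase gene Msmo1 were the lowest, 6.99-fold and 4.85-fold below chow in the 2-month study and 14.2-fold and 9.69-fold in the 5-month study. Against this direction stood Insig2, which encodes a retention protein for SCAP and was 3.63-fold and 1.85-fold higher, and the efflux pump gene Abcg1, which was 1.79-fold and 2.78-fold higher.

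At least 2-fold lower with the diet were 6 of 29 members at 2 months, or 20.7%, against 1.55% of all measured genes. At 5 months the count was 13 of 29, or 44.8%, against 1.83%. These 13 were 11 synthesis enzymes with Srebf2 and Scap. Beside this, all 10 hepatocyte markers were lower at 5 months, with a median of -0.37, while the medians of 12 macrophage and 6 stellate cell markers were 1.08 and 0.94. At 2 months the medians of these lists were 0.05, 0.99 and 0.37, and their part in the result was not tested. On the higher side 1 member passed 2-fold at each time, Insig2 and then Abcg1, a share of 3.45% beside 1.98% and 2.72% of all genes. The 6 genes Idi1, Fdft1, Sqle, Cyp51, Msmo1 and Nsdhl were at least 2-fold lower at both times, and they made up 15% of the 40 genes of the array that were so. Among all measured genes Idi1 ranked 3 from the lowest at each time, and Msmo1 ranked 10 and then 5.

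With limma fitted to the 6 arrays, blocked by study, and Benjamini-Hochberg adjustment over all measured genes, 0 of 29 members were called for the diet at an adjusted p under 0.05, beside 0.0286% of all genes. The lowest adjusted p among members was 0.0877, shared by Idi1, Fdft1 and Msmo1. At an unadjusted p under 0.05 the same fit held 21 of 29 members beside 9.87% of all genes, with 18 lower and 3 higher beside 4.44% and 5.43%. Restricted to the 9874 genes above the floor on all 6 arrays, limma called 11 members for the diet, beside 134 of those genes. It called Abcg1 and Insig2 as higher, and Cyp51, Fdft1, Fdps, Hsd17b7, Idi1, Msmo1, Nsdhl, Scap and Sqle as lower. For the drug it called 3 members, Idi1, Lcat and Msmo1, all higher, beside 384 of those genes. With any 1 array left out a treatment keeps only 1 array, so counts from such fits are not given. The fit to all 6 arrays has 2 residual degrees of freedom, and its error includes how far an effect differed from study to study.

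**Figure D1:**
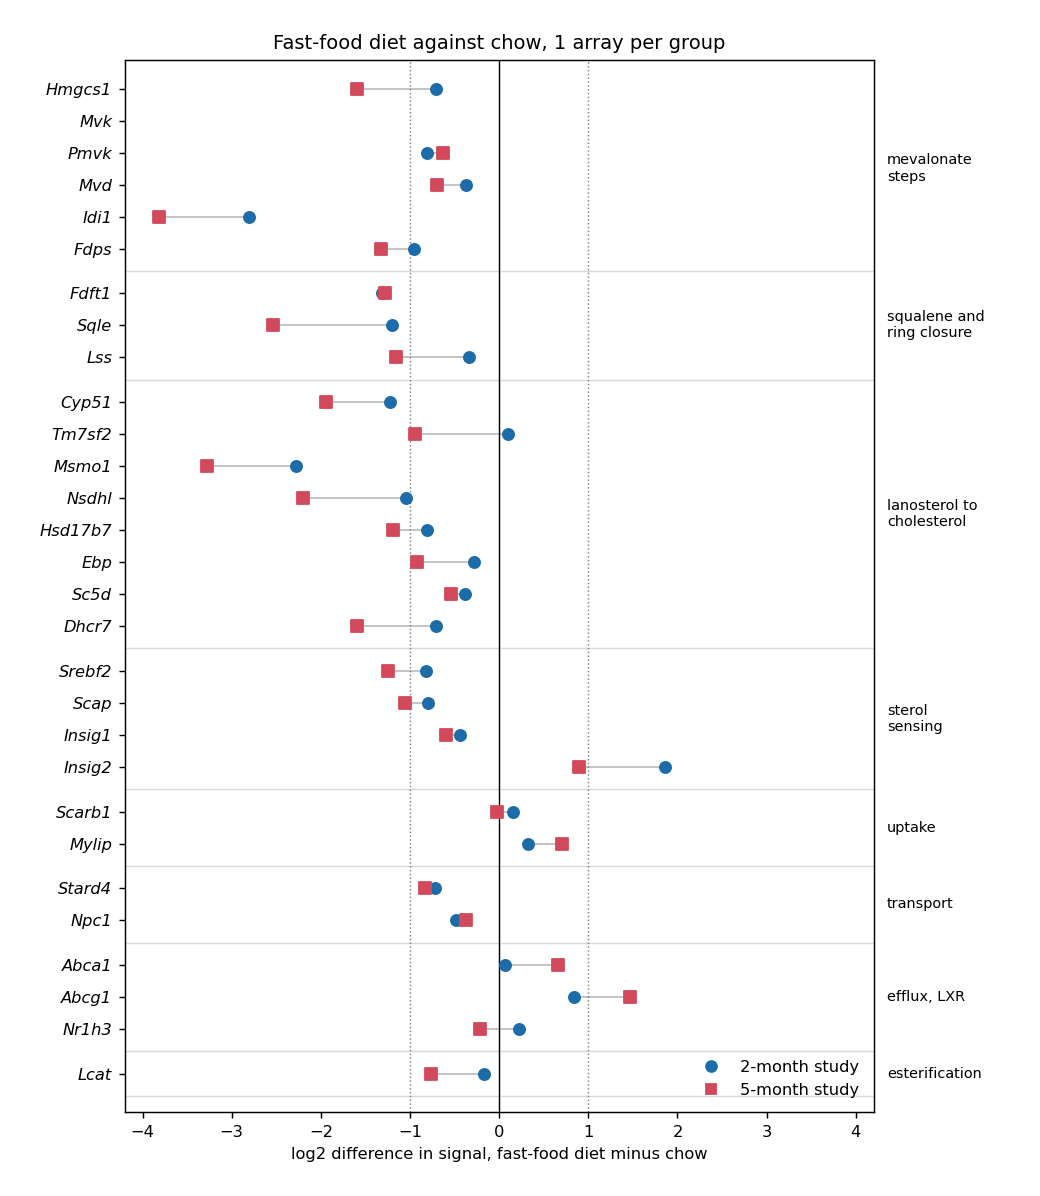
Log2 difference in signal between the fast-food and chow arrays for each of the 29 measured members, grouped by role, at 2 months (circles) and 5 months (squares); dotted lines mark 2-fold. Idi1 and Msmo1 lie farthest to the left, Insig2 and Abcg1 to the right, and Mvk has no point because its signal was at the floor on the arrays compared.

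The second comparison asked how canertinib altered these genes in mice on the diet. A few of the genes that were lowest with the diet were higher on the drug arrays. Idi1 was 3.18-fold and 2.23-fold higher at 2 and 5 months, Msmo1 2.83-fold and 2.48-fold, and the squalene epoxidase gene Sqle 2.72-fold and 2.04-fold. Insig2 was 2.17-fold lower at 2 months and 1.59-fold lower at 5 months. The plasma esterification gene Lcat was 1.97-fold and 1.91-fold higher.

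At least 2-fold higher with the drug were 3 of 29 members at each time, or 10.3%, against 3.55% of all measured genes at 2 months and 2.19% at 5 months. At least 2-fold lower were 1 and then 0 members, beside 3.26% and 2.73% of all genes. The median member differed by 0.27 and 0.30 on the log2 scale. Beside this, all 10 hepatocyte markers were higher on both drug arrays, with medians of 0.63 and 0.60, and their part in the result was not tested. The limma fit called 0 of 29 members with the drug at an adjusted p under 0.05, where it called 0.715% of all genes, and the lowest adjusted p was 0.130, that of Lcat. At an unadjusted p under 0.05 it held 12 of 29 members beside 14.8% of all genes, with 10 higher and 2 lower beside 7.24% and 7.53%. The higher members include Mvk, which counted as measured only through the drug arrays, and without it the median member differed by 0.25 and 0.29. Diet and drug comparisons share the fast-food arrays, so opposite signs in them are not independent.

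Set against chow, the drug-treated livers had 2 of 29 members at least 2-fold lower at 2 months, Idi1 and Sc5d, or 6.9% against 2.74% of all genes. At 5 months 11 of 29 were at least 2-fold lower, or 37.9% against 2.72%. All 11 were synthesis enzymes. On the higher side stood 0 members and then 1, Abca1, beside 3.8% and 2.82%. The same fit called 0 of 29 members for this difference at an adjusted p under 0.05, beside 0.765% of all genes, and held 18 at an unadjusted p under 0.05 beside 15.6%, with 14 lower and 4 higher, Mvk among the latter, beside 7.72% and 7.88%. With quantile normalization it called 1 member, Sc5d, beside 118 of 13970 genes. Over genes above the floor on all 6 arrays it called 8, beside 402 of 9874.

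**Figure D2:**
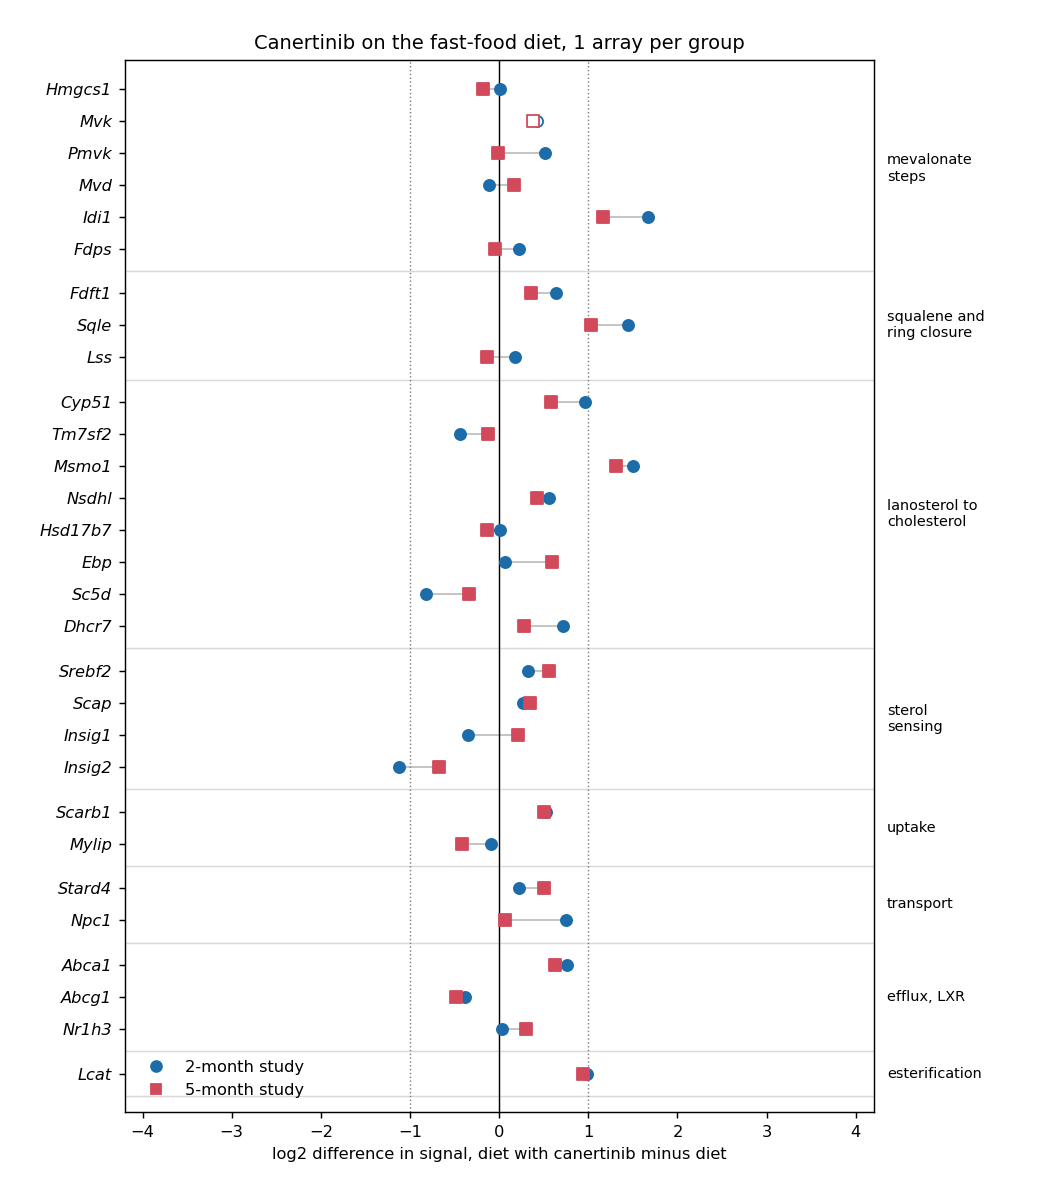
Log2 difference in signal between the array of diet with canertinib and the array of diet alone for each measured member, at 2 months (circles) and 5 months (squares), with dotted lines at 2-fold and open symbols for lower bounds. Idi1, Sqle and Msmo1 lie beyond the right-hand line at both times, and Insig2 lies beyond the left-hand line at 2 months.

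Along the early, mevalonate steps the measured members were Hmgcs1, Mvk, Pmvk, Mvd, Idi1 and Fdps. Idi1 interconverts the isoprenoid building blocks isopentenyl and dimethylallyl diphosphate. Its probe set 1451122_at had a signal of 5508 on chow, 788 on fast food and 2504 on fast food with the drug at 2 months, and 7736, 547 and 1218 at 5 months. Both chow arrays lay above both drug arrays, and these above both fast-food arrays. The other Idi1 probe set, 1423804_a_at, had the same signs in all 4 comparisons of diet and drug, with log2 changes of -3.15 and -2.77 for the diet and 2.20 and 0.34 for the drug. In the limma fit over both studies the diet difference of Idi1 was -3.31 with a standard error of 0.35 and an adjusted p of 0.0877, and the drug difference was 1.41 with a standard error of 0.35 and an adjusted p of 0.176.

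Hmgcs1 encodes the cytosolic HMG-CoA synthase, which condenses acetoacetyl-CoA with acetyl-CoA. Its signal was 7451, 4571 and 4601 on the chow, fast-food and drug arrays in the 2-month study and 14003, 4642 and 4111 in the 5-month study. The fast-food and drug arrays thus differed little, and the larger diet difference at 5 months, -1.59 against -0.71, went with a chow array 1.88-fold brighter than that at 2 months. Of its 5 probe sets, 4 were above the floor, and all 4 were lower with the diet at both times, whereas with the drug at 2 months 3 of the 4 had the opposite sign to the probe set used.

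Fdps, whose enzyme joins the building blocks to farnesyl diphosphate, showed a similar course, with 2956, 1520 and 1768 in the 2-month study and 2835, 1129 and 1090 in the 5-month study. Here the chow arrays were close to each other, and the diet arrays lay 1.94-fold and 2.51-fold below them. The kinase gene Pmvk had log2 changes of -0.81 and -0.63 with the diet, and the decarboxylase gene Mvd -0.37 and -0.70. With the drug Pmvk had 0.51 and -0.01 and Mvd -0.12 and 0.17, and the other Mvd probe set had 0.24 and 0.16. Mvk, the mevalonate kinase gene, exceeded the floor on the drug arrays alone, where its signal was 297 and 287. It was therefore at least 1.34-fold higher with the drug at 2 months and at least 1.30-fold higher at 5 months, and its diet difference could not be sized.

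From farnesyl diphosphate, squalene synthase (Fdft1), squalene epoxidase (Sqle) and lanosterol synthase (Lss) lead to the first sterol. Sqle, the gene of an oxygen-requiring control step, had signals of 2971, 1290 and 3510 in the 2-month study and 3842, 660 and 1346 in the 5-month study. At 2 months the drug array was slightly brighter than chow, with a log2 difference of 0.24, while at 5 months it lay 2.85-fold below chow. In the limma fit the diet difference of Sqle was -1.87 with a standard error of 0.41 and an adjusted p of 0.252. Fdft1 had 3769, 1505 and 2343 and then 4453, 1837 and 2354. Its diet difference was nearly the same at both times, 2.50-fold and 2.42-fold lower, and a second bright probe set, 1438322_x_at, gave log2 changes of -1.26 and -1.86. Lss was 1.27-fold lower at 2 months and 2.23-fold lower at 5 months, between chow signals of 1116 and 1822 and fast-food signals of 879 and 817.

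Msmo1 encodes the methylsterol monooxygenase that strips methyl groups after lanosterol. Probe set 1423078_a_at had 5245, 1081 and 3062 in the 2-month study and 6322, 653 and 1618 in the 5-month study. As with Idi1, the pairs of arrays did not overlap, with chow highest, the drug between and fast food lowest. Its partner Nsdhl, which removes the carboxyl group that Msmo1 leaves, had 4376, 2111 and 3112 and then 5573, 1212 and 1623. The lanosterol demethylase gene Cyp51 had 995, 425 and 827 and then 1711, 447 and 667, so that both fast-food arrays were alike and the chow arrays were not. In the limma fit the diet differences were -2.78 for Msmo1 with an adjusted p of 0.0877, -1.63 for Nsdhl with 0.224 and -1.58 for Cyp51 with 0.214, with standard errors of 0.30, 0.32 and 0.30.

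The last steps differed more among themselves. Dhcr7, whose reductase makes cholesterol from its direct precursor, had 1926, 1176 and 1934 at 2 months, where the drug array was close to chow, and 2812, 933 and 1133 at 5 months, where it did not. Hsd17b7, a ketosteroid reductase gene, was 1.76-fold and 2.27-fold lower with the diet and within 1.1-fold of the diet level with the drug. Its other 3 probe sets were higher with the drug at 2 months, by 0.47 to 0.68 on the log2 scale, and at 5 months they differed by -0.25 to 0.00. The isomerase gene Ebp had log2 changes of -0.28 and -0.92 with the diet and 0.06 and 0.59 with the drug. Tm7sf2, the gene of a sterol reductase with a counterpart enzyme elsewhere in the genome, was the sole measured enzyme above chow at 2 months, with a difference of 0.10, and had -0.95 at 5 months.

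Sc5d, the gene of lathosterol oxidase, had the lowest drug difference among the enzymes. Its signal was 17872, 13732 and 7799 in the 2-month study and 20053, 13778 and 10884 in the 5-month study, so each drug array lay below its fast-food array and each fast-food array below chow. All 3 of its probe sets were lower with the drug at both times, by log2 values from -2.00 to -0.44 at 2 months and from -0.62 to -0.27 at 5 months. For the diet they disagreed, with 2 of 3 higher at 2 months. In the limma fit Sc5d was lower on the drug arrays than with chow by -1.04 on the log2 scale, with a standard error of 0.18 and an adjusted p of 0.0938.

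By step, the median diet difference was -0.76 and -1.01 over the 6 mevalonate-step genes at 2 and 5 months, -1.20 and -1.28 over the 3 genes from squalene synthase to lanosterol synthase, and -0.76 and -1.39 over the 8 genes after lanosterol. With the drug these medians were 0.32 and 0.08, 0.64 and 0.36, and 0.31 and 0.35. The mevalonate-step medians include Mvk, which counted as measured only through the drug arrays. In the diet medians Mvk stands at 0, though its diet difference could not be sized. Without Mvk the middle gene of that step with the diet was Pmvk at 2 months, with -0.81, and Fdps at 5 months, with -1.33. With the drug it was Fdps at 2 months, with 0.22, and Pmvk at 5 months, with -0.01. Over the 17 enzymes the arrays at 5 months differed from those at 2 months by a median of 0.27 on chow, -0.37 on the fast-food diet and -0.43 with the drug. Across all members, 21 of the 25 with the same sign at both times had the larger diet difference at 5 months. For the drug difference this held for 7 of 22. Such counts were not made over all measured genes, so they cannot set the members apart from the array as a whole. Its diet shares past 2-fold, at 2 and then 5 months, were 1.98% and 2.72% above chow, 1.55% and 1.83% below. Its drug shares were 3.55% and 2.19% above the diet array, 3.26% and 2.73% below. No test of the difference between the times is possible with 1 array per group.

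**Figure D3:**
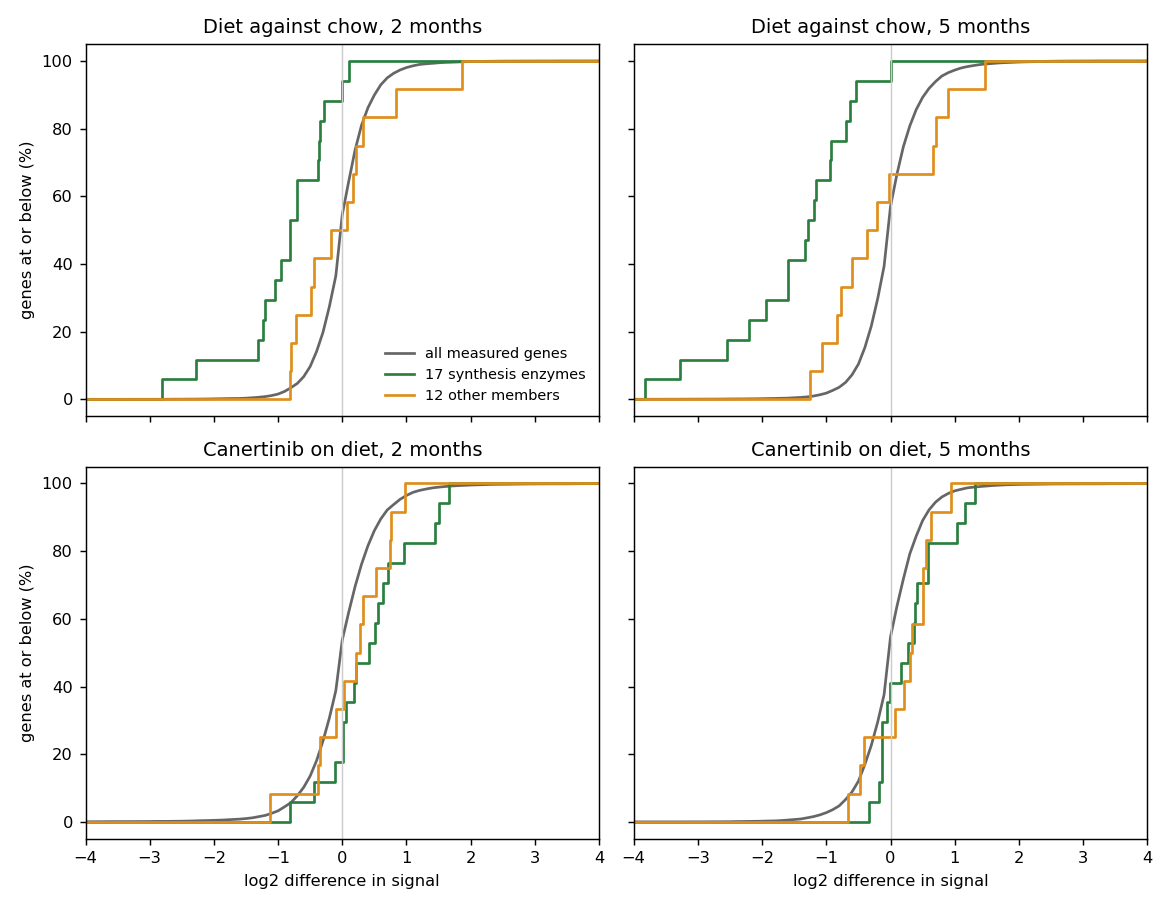
Cumulative share of genes (%) at or below each log2 difference, for all measured genes (grey), the 17 measured synthesis enzymes (green) and the 12 other members (orange), in the 4 comparisons; Mvk is drawn at 0 with the diet. The enzymes lie to the left of all genes with the diet, with medians of -0.81 and -1.28. With the drug they lie to the right, with medians of 0.42 and 0.28. The 0.42 is the value of Mvk itself, a lower bound, and Mvk counted as measured only through the drug arrays.

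Promoter letters are shown for 4 members because Idi1 and Msmo1 were lowest with the diet, Hmgcs1 held the classical sterol response element, and Insig2 differed in the opposite direction. The RefSeq promoter table for GRCm38.p6 held 25 of the 33 genes and 15 of the 18 synthesis genes. Each line gives bases directly upstream of an annotated start, 5′ to 3′ along the gene, and for Insig2 of the most upstream of its starts. Capitals mark CCAAT, the box bound by the SREBP partner NF-Y, in either orientation, and in Hmgcs1 also the sterol response element TCACNCCAC.
Idi1, chr13:8885446-8885605, plus strand: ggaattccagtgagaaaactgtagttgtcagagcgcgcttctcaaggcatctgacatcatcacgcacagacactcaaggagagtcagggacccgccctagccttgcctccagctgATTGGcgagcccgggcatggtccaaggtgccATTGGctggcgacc
Msmo1, chr8:64733579-64733738, minus strand: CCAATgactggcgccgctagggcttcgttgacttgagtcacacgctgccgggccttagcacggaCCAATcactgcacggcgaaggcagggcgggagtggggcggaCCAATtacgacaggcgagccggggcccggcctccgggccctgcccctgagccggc
Hmgcs1, chr13:119690111-119690350, plus strand: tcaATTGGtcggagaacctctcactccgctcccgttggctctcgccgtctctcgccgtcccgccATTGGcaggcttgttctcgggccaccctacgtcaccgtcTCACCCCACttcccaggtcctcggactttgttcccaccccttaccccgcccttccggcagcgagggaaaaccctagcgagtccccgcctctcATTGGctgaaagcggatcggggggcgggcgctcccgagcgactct
Insig2, chr1:121332590-121332749, minus strand: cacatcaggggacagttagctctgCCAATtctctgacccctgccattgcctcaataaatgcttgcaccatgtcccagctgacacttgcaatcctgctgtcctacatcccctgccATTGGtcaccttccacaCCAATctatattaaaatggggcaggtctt

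A CCAAT box within 250 bases upstream of a start was present in 14 of the 15 synthesis genes in the table and in 20 of all 25 members there, against 39.4% of the 11216 measured genes with an entry and 37.5% of all 27025 genes of the table. The GC box GGGCGG, searched on both strands too, stood in 14 of 15 and 20 of 25, beside 57.7% of the measured genes. The exact sterol response element TCACNCCAC was found in 1 of 25 members, Hmgcs1, beside 1.38% of measured genes. With at most 1 of its 8 fixed letters changed, a search added after the data were seen, it was found in 12 of 25 members beside 25.4% of measured genes. The LXR repeat, 2 copies of AGGTCA spaced by 4 bases, was in 0 of 25, beside 0.00892%. The relaxed element includes the exact one, and a relaxed match shares letters with a CCAAT box in Msmo1 and with a GC box in Insig2. A match describes the letters alone.

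Sterol sensing genes were split. Srebf2 had signals of 905, 512 and 639 in the 2-month study and 1016, 428 and 630 in the 5-month study, and Scap, its escort, had 4059, 2331 and 2816 and then 4258, 2036 and 2575. In both genes the chow arrays were highest, the drug arrays between and the fast-food arrays lowest at each time. The limma diet difference was -1.04 with a standard error of 0.23 and an adjusted p of 0.252 for Srebf2, and -0.93 with 0.13 and 0.144 for Scap. A dimmer Srebf2 probe set, 1426744_at, differed in sign at 2 months, with 0.13, and had -0.65 at 5 months.

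The retention genes Insig1 and Insig2 differed from each other. Insig1, itself a target of SREBP2, had 3447, 2545 and 1998 in the 2-month study and 4403, 2898 and 3345 in the 5-month study. It was thus 1.35-fold and 1.52-fold lower with the diet, and the drug array was lower than the diet array at 2 months and higher at 5 months. Insig2 had 3517, 12769 and 5872 in the 2-month study and 5199, 9640 and 6047 in the 5-month study. Both fast-food arrays were brighter than the other 4, and the drug arrays lay closer to chow than to fast food. All 3 Insig2 probe sets had these signs, with diet differences from 1.61 to 1.96 at 2 months and from 0.89 to 1.11 at 5 months. The limma differences of Insig2 were 1.38 for the diet and -0.90 for the drug, each with a standard error of 0.24, and adjusted p was 0.199 and 0.196.

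**Figure D4:**
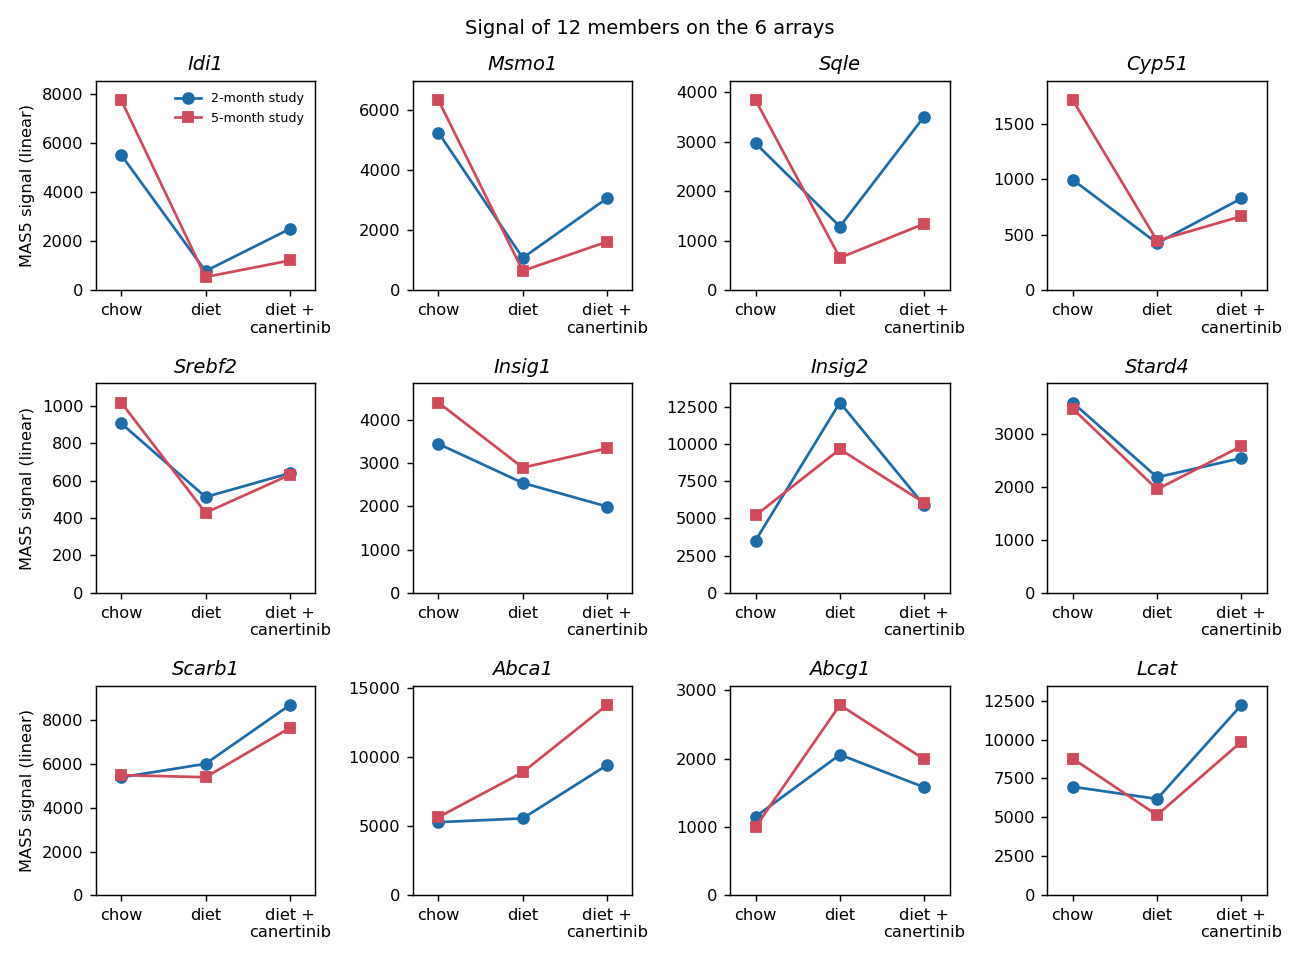
MAS5 signal (linear scale) of 12 members on the 6 arrays, for chow, fast-food diet and diet with canertinib in the 2-month study (blue circles) and the 5-month study (red squares), 1 array per point. Idi1, Msmo1 and Srebf2 are lowest on the fast-food arrays, Insig2 and Abcg1 are highest there, and Scarb1, Abca1 and Lcat are highest on the drug arrays.

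Uptake was represented by Scarb1, the receptor for HDL cholesterol, and Mylip, whose ubiquitin ligase removes lipoprotein receptors. Scarb1 had 5388, 6000 and 8682 in the 2-month study and 5486, 5389 and 7639 in the 5-month study. Chow and fast-food arrays were close to each other, and the drug arrays were 1.45-fold and 1.42-fold above fast food. All 3 of its probe sets were higher with the drug at both times, from 0.50 to 0.95 on the log2 scale, while the limma adjusted p was 0.183. Beside this, all 10 hepatocyte markers were higher with the drug at both times, with medians of 0.63 and 0.60. Their part in the Scarb1 difference was not tested. Mylip was 1.25-fold and 1.63-fold higher with the diet and 1.07-fold and 1.34-fold lower with the drug than with the diet alone.

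Of the transport genes, Stard4, a sterol carrier of the cytosol, had 3583, 2177 and 2537 and then 3467, 1950 and 2762. Chow was highest and fast food lowest at each time, and in all 3 probe sets fast food was below chow, by -1.83 to -0.72, and below the drug array. Npc1, which moves cholesterol out of lysosomes, was 1.39-fold and 1.30-fold lower with the diet and 1.68-fold and 1.05-fold higher with the drug.

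The efflux pumps differed in what they tracked. Abca1, which loads cholesterol onto apolipoprotein A-I, had 5310, 5581 and 9446 in the 2-month study and 5667, 8927 and 13802 in the 5-month study. Its drug arrays were the brightest, 1.78-fold and 2.44-fold above chow, with a limma difference of 1.06, a standard error of 0.18 and an adjusted p of 0.0909. For the diet its 3 probe sets disagreed in sign at both times. Abcg1, the pump to HDL particles, had 1151, 2057 and 1580 and then 1002, 2783 and 1990, with fast food highest and chow lowest. Its limma diet difference was 1.16 with a standard error of 0.20 and an adjusted p of 0.194, and a dim Abcg1 probe set had -0.17 at 2 months and 0.31 at 5 months. Nr1h3, the gene of the LXR alpha receptor, stayed within 1.23-fold in each of the diet and drug comparisons.

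Macrophages also carry Abca1 and Abcg1. All 12 markers were higher with the diet at 2 months and 10 of 12 at 5 months, and their summed signal was 16087 and 16006 on the chow, 34478 and 47281 on the fast-food and 38715 and 47305 on the drug arrays at 2 and 5 months. Fewer cells of a type and less RNA per cell cannot be told apart in whole liver. With the drug against the diet alone, 8 macrophage markers were higher and 4 lower at 2 months, from -2.03 to 2.67 on the log2 scale. At 5 months 9 were higher and 3 lower, from -1.95 to 1.92. The 4 measured of 5 neutrophil markers summed to 1708, 1637 and 12722 in the 2-month study and 2044, 1751 and 14570 in the 5-month study, highest on the drug arrays, where Abca1 was highest as well. The part of these cells in the efflux results was not tested.

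Esterification could be followed through Lcat alone, the hepatocyte gene for the enzyme that esterifies cholesterol in plasma. Lcat had 6969, 6188 and 12213 in the 2-month study and 8776, 5152 and 9863 in the 5-month study. Both drug arrays were brighter than the other 4, and the diet array was below chow at each time, by 1.13-fold and 1.70-fold. In the limma fit the drug difference was 0.96 with a standard error of 0.20 and an adjusted p of 0.130. The hepatocyte markers were lower with the diet at 5 months and higher with the drug at both times, so Lcat had their sign in these comparisons. Their part was not tested.

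Genes of neighbouring pathways were counted in the same way, beside the shares over all genes. For the diet at 2 months 1.98% lay 2-fold or more above chow and 1.55% below, and at 5 months 2.72% and 1.83%. With the drug these shares were 3.55% and 3.26%, then 2.19% and 2.73%. In lists of 7 to 10 genes a count of 0 is near such shares, and no difference from the enzymes was tested. Of 10 measured genes of the isoprenoid branch, which draws on the same building blocks for ubiquinone, dolichol and prenylation, 0 were at least 2-fold different with the diet or the drug at either time, and the diet medians were -0.03 and 0.00. Of 8 genes that process SREBP or turn over sterol regulators, 0 were at least 2-fold different, with diet medians of -0.09 and 0.30. Among 10 other SREBP targets, many of them for fatty acid synthesis, the diet had 1 at least 2-fold above chow and 0 below at 2 months, then 2 above and 2 below at 5 months. The drug had 1 above and 2 below the diet array at 2 months, then 0 above and 1 below. The desaturase gene Fads2 was the sole gene of these lists at least 2-fold different the same way at both times with the diet or with the drug, at -1.36 and -1.23 with the drug. Of 7 measured LXR targets besides the members, 2 were at least 2-fold higher with the diet at 2 months and 0 at 5 months, with medians of 0.43 and 0.15. A gene shared with the list of other SREBP targets is in the 2-month count of both lists. With the drug 0 and then 1 of the 7 were at least 2-fold lower, with medians of -0.29 and -0.21.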

How the data were processed

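Each of the 6 arrays held RNA pooled from 3 to 4 livers, and the deposited intensity values are MAS5 signals, per the submitters' processing notes (version not given in the sources used here). From the values, the authors had scaled each array to a trimmed mean of 500, leaving out 2% at either end. The 45101 probe sets comprised 34958 with a single gene symbol, 932 with several and 9211 with none, and older symbols were updated through gene IDs. Lower signals were set to 221.4 (the 50th percentile) before log2 transformation, which gives only a bound for dim genes. Differences between single arrays carried no test, and 2-fold counts are set beside those over all measured genes. Each array is taken as 1 sample. The limma error comes from how far differences between the groups varied between the 2 studies, and it borrows from all measured genes. All members were named, and genes of other pathway lists only where at least 2-fold different the same way at both times. Other genes chosen after their values were seen are marked as such. Members, lists and the fit were chosen with earlier results of these data known. Alternatives were other normalizations, floors, probe set rules and left-out arrays. On simulated data for the diet contrast, with 13989 genes, limma called 67.5% of genes changed 2-fold and 100% of those changed 4-fold. The simulation gave every gene the same noise and each changed gene the same change in both studies, so these rates need not hold for the arrays. Python 3.11.15, NumPy 2.4.6, pandas 2.3.3, matplotlib 3.10.9, R 4.3.3 and limma 3.58.1 were used.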

Additional observations from a re-analysis of the deposited data

Results flagged for a closer look

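With the diet, 2 genes of the neighbouring lists differed in opposite directions at the 2 times, each by at least 1.5-fold. Lpin1, a phosphatidate phosphatase gene, differed by -0.87 on the log2 scale in the 2-month study and by 1.51 in the 5-month study, and its chow arrays differed by -2.00, lower at 5 months. Spring1, whose product helps the protease that cuts SREBP, had -0.72 and 0.86, and its chow arrays differed by -0.94. Neither difference between the times was tested. No member met this rule.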

How the results depend on the processing

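Over 9 settings for scaling, floor, filter and probe sets, the 28 member values past 2-fold with the diet or the drug gave 248 recomputed values. None of these reversed, 234 stayed at least 2-fold and 14 fell below. Changing the floor, or filtering on it, returns the same value for a gene well above it, so those settings could not move these values. Most of the 14 came from averaging all probe sets of a gene. The 2-fold counts of drug and diet against chow were not recomputed. With a 1.5-fold limit, members lower with the diet numbered 14 and 20, and higher 2 and 4, at 2 and 5 months. With the drug the counts were 9 and 6 higher and 2 and 1 lower. Shares over all genes were taken at log2 values of -0.6 and 0.6, close to this limit. At or below -0.6 lay 6.71% and 7.23% of all genes with the diet, and 10.22% and 8.84% with the drug. At or below 0.6 lay 92.93% and 91.87% with the diet, and 89.51% and 92.19% with the drug, and the rest were higher. Averaging all probe sets of a gene, dim ones included, gave 8 members past 2-fold lower for the 5-month diet, with a median of -0.77, and 1 at least 2-fold higher with the drug at 5 months, where Idi1 had 0.75 and Msmo1 0.66. Run on the 9874 genes above the floor on all 6 arrays, limma called 11 members for the diet and 3 for the drug. Of those 9874 genes it called 134 and 384, and the cause of the difference from the main fit was not tested. For these contrasts, every other limma setting on all 6 arrays called 0 members. Those settings called from 0 to 4 of all their genes for the diet and from 7 to 142 for the drug. Where 0 genes were called, the member count could only be 0. The lowest member adjusted p in these limma fits ranged from 0.0813 to 0.253 for the diet and from 0.0828 to 0.189 for the drug. Fits with 1 array left out keep only 1 array of a treatment and are not counted here. The labels carry no replicate numbers, and the fit itself pairs arrays by study. Signals near the floor limit Mvk.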

Other observations

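Among 11 measured genes for the handling of sterol inside the cell, 10 were higher with the diet at 2 months and 5 at 5 months, with medians of 0.33 and -0.01. Over all 13989 measured genes, 6361 and then 6015 were higher, so the count at 5 months is near that of the array. Chosen after its values were seen, the lysosomal lipase gene Lipa, which frees cholesterol from lipoprotein esters, had signals of 3726, 6507 and 3759 on the chow, fast-food and drug arrays in the 2-month study and 4441, 8030 and 4892 in the 5-month study. Both fast-food arrays were brighter than the other 4, and the drug arrays differed from chow by 0.01 and 0.14 on the log2 scale. The cholesteryl ester hydrolase gene Nceh1, chosen in the same way, had 986, 1057 and 158 at 2 months, the last of these below the floor, and 1179, 1422 and 940 at 5 months. Its drug difference was a bound of -2.25 at 2 months and a value of -0.60 at 5 months.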
